A study of Mus musculus with 6 samples.

Results

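The axoneme genes were taken as every gene whose symbol begins with Cfap, Dnah, Dnaaf, Dnai, Drc, Rsph or Tekt followed by a digit and whose counts summed to at least 10 over the 6 mice. This gave 85 of the 88 genes with such names, out of 21899 genes listed. The other 3, Cfap107 with a summed count of 8 and Cfap97d1 and Dnaaf6 with 0, were left out. The 85 genes comprised 15 dynein heavy chains, 4 dynein intermediate chains, 9 dynein assembly factors, 3 genes of the nexin-dynein regulatory complex, 8 radial spoke genes, 5 tektins and 41 CFAP genes.

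A motile cilium bends because dynein motors, arranged in inner and outer arms along a ring of microtubule doublets, slide neighbouring doublets past each other. Nexin-dynein links hold the doublets together, radial spokes pass signals from the central apparatus to the dynein arms, and tektins and many CFAP proteins line the inside of the doublets. In the brain, ependymal cells of the ventricle wall carry tufts of motile cilia that move the cerebrospinal fluid, and epithelial cells of the choroid plexus and the subcommissural organ also bear cilia. Most neurons and astrocytes carry a primary cilium, which lacks dynein arms.

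Bulk RNA of the thalamus was sequenced from male wild-type C57BL/6J mice, which were purchased at 8 to 10 weeks of age. Their left thalamus had been irradiated with 50 Gy by Gamma Knife. At 2 weeks after irradiation, the RC group (n = 3 mice) received 2 µL of AAV9 GFAP104::tdTomato, a virus for the red fluorescent protein tdTomato alone, and the RN group (n = 3 mice) received 2 µL of AAV9 GFAP104::mND1-tdTomato, which also carries mouse NeuroD1. GFAP104, an EF1α enhancer joined to the gfaABC1D promoter, is aimed at astrocytes. The tissue beneath the hippocampus was removed with tweezers at 6 weeks after irradiation, and non-irradiated mice were not analysed here. Nothing in the labels says that mice of a group came from separate litters or cages, so p-values measure the spread between these mice.

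The libraries held between 16561663 and 18657015 counted reads. Values are given as CPM (read counts scaled to library size, with edgeR's TMM factors), always in the order of replicates 1, 2 and 3, and a count of 0 allows up to between 0.160 and 0.179 CPM, a limit that covers counting error only. Neurod1 had 84, 91 and 90 counts in RC replicates 1, 2 and 3 and 1123, 1711 and 910 in RN replicates 1, 2 and 3, which matched the labels (log2 fold change 3.77 ± 0.23 SE, adjusted p = 0.00178, edgeR's quasi-likelihood test). Thalamic neuron markers were present in all mice, with Tcf7l2 between 73.9 and 223 CPM. The choroid plexus markers set the RC mice apart from each other. The transthyretin gene Ttr lay at 2480, 7626 and 257 CPM in RC replicates 1, 2 and 3 and between 24.7 and 91.8 CPM in RN, and the axoneme values are therefore also given without single mice and with a choroid plexus score in the fit. That score, the mean centred log2 CPM of 15 markers, was 1.64, 2.88 and -0.73 in RC replicates 1, 2 and 3. In RN it was -1.46, -1.15 and -1.18, below every RC mouse. The score therefore partly stands for the group, and values fitted with it cannot separate score from group.

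Because RFX and FOXJ1 factors are known to drive axoneme genes, the promoters of the axoneme genes were read for the letters these factors prefer. Promoters were RefSeq windows on the mouse build GRCm38.p6, each reaching from 250 bases before to 50 bases after a transcription start, and 69 of the 85 genes (81.2%) had an entry. The X-box half-site GTTGCC, on either strand, was present in 28 of 69 axoneme genes (40.6%) and in 14.1% of the 27025 genes with a window. The forkhead core TGTTTAC, on either strand, was present in 4 of 69 (5.80%) and in 4.05% of all genes. The letters of the 2 motifs cannot overlap. Windows that hold several half-sites are shown to place the motif beside the expression values that follow, the first 3 from genes that were lower in RN and the last from a gene that was not. They are Dnah10 at chr5:124724835-124725134 (plus strand), Cfap161 at chr7:83794790-83795089 (minus strand), Tekt1 at chr11:72361833-72362132 (minus strand) and Tekt2 at chr4:126325639-126325938 (minus strand), written 5′ to 3′ on the strand of the gene, with GTTGCC and its reverse complement GGCAAC in capitals. They were chosen after their values were seen.
Dnah10: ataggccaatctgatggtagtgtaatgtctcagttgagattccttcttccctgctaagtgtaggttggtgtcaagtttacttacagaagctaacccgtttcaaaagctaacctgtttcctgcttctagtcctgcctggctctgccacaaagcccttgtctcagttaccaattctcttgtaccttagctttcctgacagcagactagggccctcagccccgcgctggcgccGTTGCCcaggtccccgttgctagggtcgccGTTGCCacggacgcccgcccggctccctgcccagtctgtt
Cfap161: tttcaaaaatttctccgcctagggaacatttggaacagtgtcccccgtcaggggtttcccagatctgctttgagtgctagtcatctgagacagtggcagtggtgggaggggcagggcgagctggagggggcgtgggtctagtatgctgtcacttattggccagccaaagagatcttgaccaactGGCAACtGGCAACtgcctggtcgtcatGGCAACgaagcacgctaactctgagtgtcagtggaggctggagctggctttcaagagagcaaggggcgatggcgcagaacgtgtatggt
Tekt1: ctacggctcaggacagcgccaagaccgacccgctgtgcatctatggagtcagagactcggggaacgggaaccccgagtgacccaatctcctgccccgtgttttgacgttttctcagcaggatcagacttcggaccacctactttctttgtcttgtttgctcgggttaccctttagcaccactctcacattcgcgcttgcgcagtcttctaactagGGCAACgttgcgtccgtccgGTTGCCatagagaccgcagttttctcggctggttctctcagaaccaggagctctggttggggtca
Tekt2: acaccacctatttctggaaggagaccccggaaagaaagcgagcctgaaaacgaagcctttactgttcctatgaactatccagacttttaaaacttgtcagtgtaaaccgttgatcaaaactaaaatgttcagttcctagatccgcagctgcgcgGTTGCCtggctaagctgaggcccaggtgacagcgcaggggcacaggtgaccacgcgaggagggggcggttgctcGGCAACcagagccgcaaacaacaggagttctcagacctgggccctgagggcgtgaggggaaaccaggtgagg
Dnah10, Tekt1 and Tekt2 each held 2 half-sites and Cfap161 held 3. The half-site occurred in 14 of the 38 genes with a window that were lower in every RN mouse than in every RC mouse, and in 14 of the 31 others.

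The axoneme genes were lower in RN than in RC. Of the 85 genes, 49 were lower in every RN mouse than in every RC mouse, 0 were higher in every RN mouse, and 36 overlapped between the groups. Among all 16592 genes with a summed count of at least 10, 7.90% were lower without overlap and 7.91% higher. Together the 85 genes took 930.0, 976.2 and 932.4 CPM in RC replicates 1, 2 and 3 and 752.7, 755.5 and 758.9 CPM in RN replicates 1, 2 and 3. The summed level of the RN mice was 79.9% of that of the RC mice, and the groups did not overlap. In bulk tissue, fewer ciliated cells and less RNA per ciliated cell cannot be told apart.

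The filter on low counts left 81 of the 85 genes for testing, and the other 4 were Dnah14, Dnaaf6b, Rsph6a and Tekt3. The median log2 fold change of the 81 was -0.60, beside 0.00 over all 14956 genes tested. Of the 81, 71 had a fitted value below 0 (49.2% of all genes did), 13 were at least 2-fold lower (1.75% of all genes) and 0 were at least 2-fold higher (1.43%). At an unadjusted p under 0.05, edgeR's quasi-likelihood test gave 37 lower genes (6.33% of all genes) and 0 higher genes (5.44%). With the replicate number as a block these were 35 (6.97%) and 1 (6.63%). At an adjusted p under 0.05 with a 2-fold change, edgeR called 0 of the 81 (0.0134% of all genes were called lower and 0.0602% higher), and the smallest adjusted p was 0.0630. With the same thresholds DESeq2 called 10 lower (0.542% of all genes) and 0 higher (0.655%), namely Dnah6, Dnah11, Dnai3, Dnaaf3, Drc7, Cfap65, Cfap161, Cfap52, Cfap206 and Cfap70. Without the 2-fold threshold DESeq2 gave 20 lower genes at an adjusted p under 0.05 (1.70%) and 0 higher (1.51%). The difference thus lay across many genes at a size that edgeR did not call for any of them in this design of 3 against 3 mice. For counts by part or list below, all genes gave 7.90% lower without overlap and 6.33% lower at an unadjusted p under 0.05 in edgeR.

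**Figure D1:**
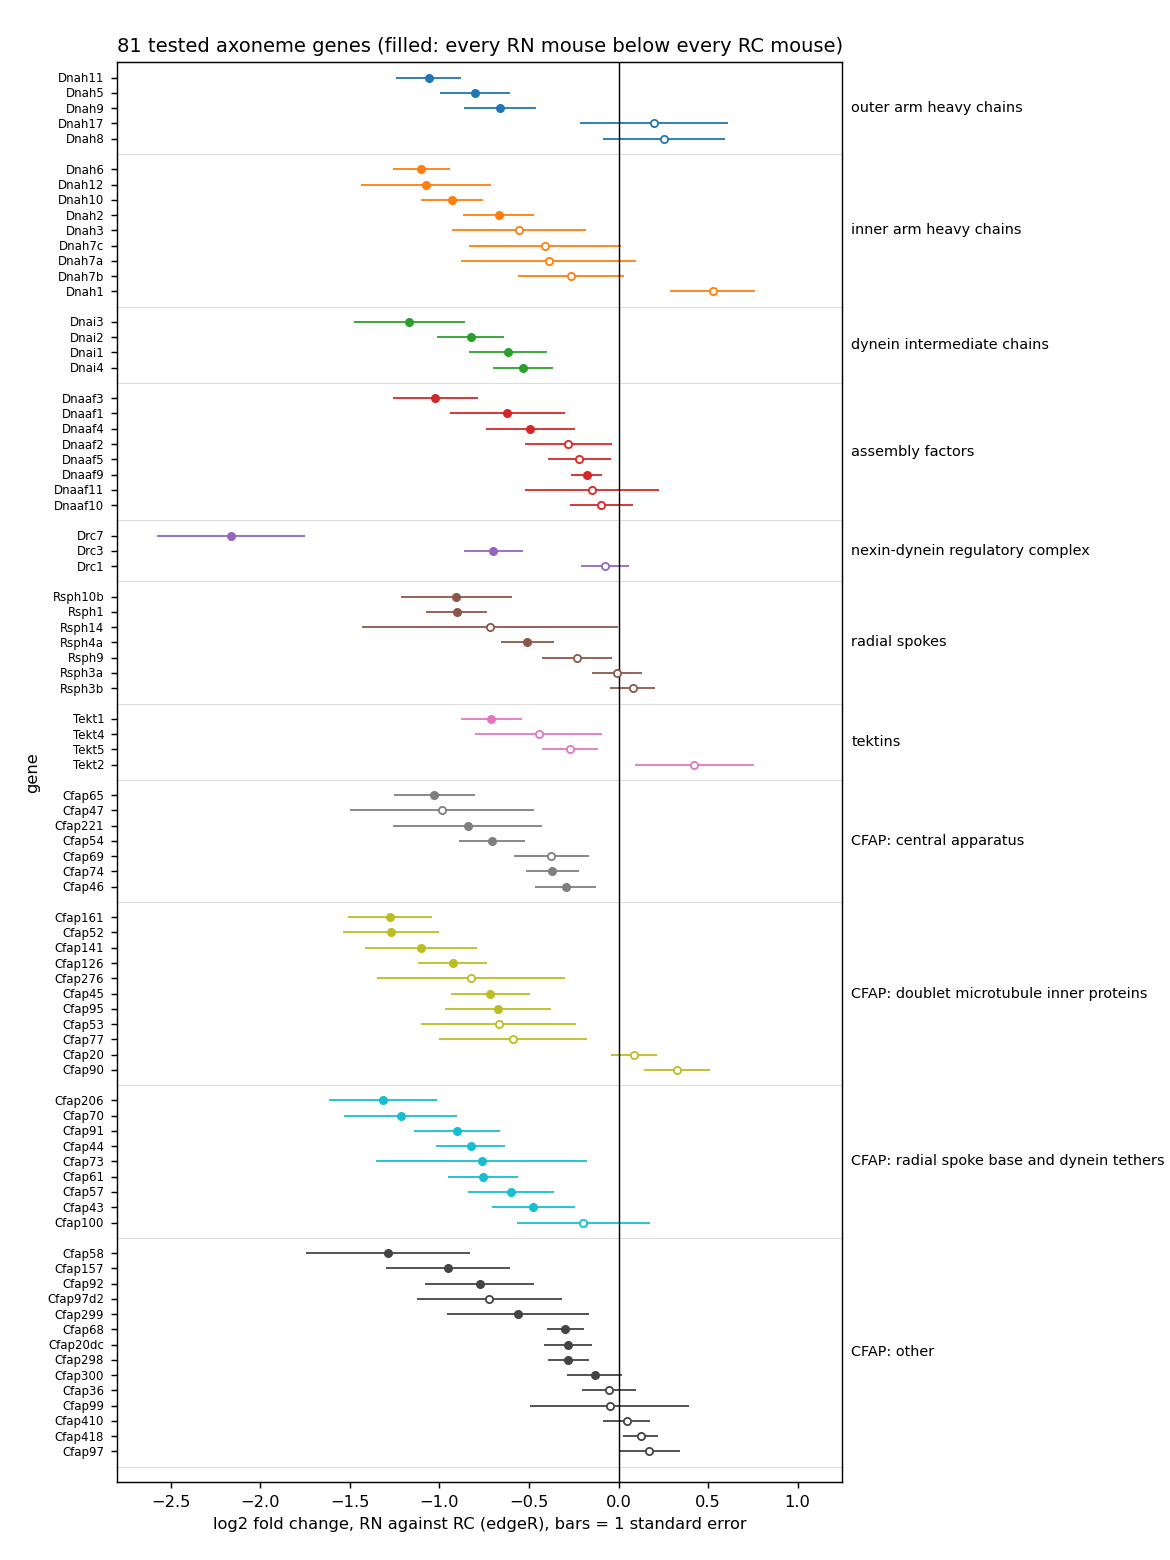
Log2 fold change of RN against RC (x axis, edgeR) for each of the 81 tested axoneme genes, grouped by part of the axoneme, with bars of 1 standard error. Filled points mark genes whose RN values were all below their RC values, and 71 of the 81 points lie left of 0.

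Outer arm heavy chains, the motors that set beat frequency, separated into a lower set and genes with little signal. Dnah11 measured 7.12, 8.19 and 8.42 CPM in the RC mice against 3.39, 4.17 and 3.80 in the RN mice, and RN held 47.9% of the RC mean (log2 fold change -1.06 ± 0.18 SE, adjusted p = 0.0846, edgeR). Dnah5, whose human counterpart is a common cause of primary ciliary dyskinesia, measured 10.0, 10.0 and 13.6 CPM in the RC mice against 7.08, 5.29 and 6.93 in the RN mice (-0.80 ± 0.20, adjusted p = 0.154). Dnah9 measured 14.9, 20.1 and 13.2 CPM in the RC mice against 8.51, 11.8 and 10.0 in the RN mice (-0.66 ± 0.20, adjusted p = 0.228). In all of these, each RN mouse lay below each RC mouse. Once the choroid plexus score entered the model, Dnah9 was at -0.23, Dnah11 at -1.10, Dnah5 at -1.13, Dnah8 at 0.39 and Dnah17 at 0.49. The median over the outer arm heavy chains moved from -0.66 to -0.23, but in both fits it is the value of Dnah9 itself. Over the inner arm heavy chains the median moved from -0.56 to -1.01. Dnah8 and Dnah17, known mainly from sperm tails, overlapped between groups at fitted values of 0.25 ± 0.34 and 0.20 ± 0.41, and both had under 0.06 CPM per kb of transcript in RC.

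Inner arm heavy chains included the gene with the smallest p of the 81 tested and the gene that went furthest the other way. Dnah6 measured 17.9, 16.7 and 19.5 CPM in the RC mice against 6.96, 8.77 and 9.45 in the RN mice, so RN held 46.5% of the RC mean (-1.10 ± 0.16, adjusted p = 0.0630 in edgeR and 3.77e-06 in DESeq2). Dnah10, a chain of the double-headed inner arm, measured 9.09, 7.83 and 8.82 CPM in the RC mice against 4.11, 4.92 and 4.47 in the RN mice (-0.93 ± 0.17, adjusted p = 0.0986). Its partner Dnah2 measured 6.84, 9.92 and 9.11 CPM in the RC mice against 4.94, 6.04 and 5.26 in the RN mice (-0.67 ± 0.20, adjusted p = 0.218). None of these RN mice reached the lowest RC mouse. Dnah1 measured 22.9, 15.8 and 11.2 CPM in the RC mice against 26.3, 22.6 and 23.0 in the RN mice. Its groups overlapped by RC replicate 1 alone, and its fitted value was 0.53 ± 0.24 (adjusted p = 0.440, edgeR's quasi-likelihood test). Dnah7a, Dnah7b and Dnah7c, which are close copies of each other and may share reads, had values of -0.39, -0.27 and -0.41 with overlapping groups.

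The 4 dynein intermediate chains, which anchor the heavy chains to the doublets, were all lower without overlap and all at an unadjusted p under 0.05. Dnai2, of the outer arm, measured 11.8, 15.5 and 10.7 CPM in the RC mice against 6.30, 7.38 and 7.72 in the RN mice (-0.83 ± 0.19, adjusted p = 0.135). Dnai3, of the double-headed inner arm, measured 5.16, 5.38 and 4.01 CPM in the RC mice against 1.31, 2.51 and 2.63 in the RN mice (-1.17 ± 0.31, adjusted p = 0.185 in edgeR and 0.0399 in DESeq2). Dnai4, also of the double-headed inner arm, measured 11.0, 11.2 and 12.5 CPM in the RC mice against 8.86, 6.63 and 8.56 in the RN mice (-0.53 ± 0.17, adjusted p = 0.236). Summed over the intermediate chains, the RN mice held 60.4% of the RC level.

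Assembly factors, which fold and join dynein arms in the cytoplasm before transport into the cilium, had a median of -0.25 over 8 tested genes. Of the 9 assembly factors, 4 were lower without overlap, beside 7.90% of all genes. In edgeR 1 of the 8 tested was lower at an unadjusted p under 0.05, beside 6.33% of all genes. That gene was Dnaaf3, at 5.27, 5.14 and 5.50 CPM in the RC mice against 1.96, 2.89 and 2.96 in the RN mice (-1.02 ± 0.24, adjusted p = 0.137). Dnaaf9, the most abundant, measured 121, 132 and 114 CPM in the RC mice against 110, 110 and 105 in the RN mice, a difference without overlap that amounted to -0.18 ± 0.09. Dnaaf4 and Dnaaf2 share 96.6% and 71.4% of their exon length with other annotated genes, and the library kit did not mark strand, so their counts are uncertain.

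Of the nexin-dynein regulatory complex, the link between neighbouring doublets, Drc7 had the largest fitted difference of all 81 genes. Drc7 measured 23.1, 41.4 and 11.9 CPM in the RC mice against 4.52, 6.15 and 6.32 in the RN mice (-2.16 ± 0.41, adjusted p = 0.0989 in edgeR and 2.26e-06 in DESeq2). The RC mice differed from each other more than the RN mice did, in the same order as their choroid plexus markers (replicate 2 highest, replicate 3 lowest). With the choroid plexus score in the fit its value was -0.75 (adjusted p = 0.377), without RC replicate 2 it was -1.62, and without RC replicate 3 edgeR called it (-2.50, adjusted p = 0.0279). Drc3 measured 17.5, 21.6 and 17.8 CPM in the RC mice against 12.1, 13.3 and 9.62 in the RN mice (-0.70 ± 0.17, adjusted p = 0.141). Drc1 overlapped, between 12.1 and 13.9 CPM in RC and between 11.4 and 12.8 CPM in RN (-0.07 ± 0.13).

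Radial spoke genes were lower in part of the spoke head, the end that meets the central apparatus. Rsph1, of the head, measured 13.0, 17.3 and 12.5 CPM in the RC mice against 7.26, 7.97 and 7.61 in the RN mice (-0.90 ± 0.17, adjusted p = 0.0986). Rsph4a, also of the head, measured 11.4, 11.9 and 13.0 CPM in the RC mice against 7.85, 8.23 and 9.45 in the RN mice (-0.51 ± 0.15, adjusted p = 0.208). Rsph10b was lower without overlap as well (-0.91 ± 0.31), whereas Rsph9, another head gene, overlapped (-0.23 ± 0.20). Rsph3a and Rsph3b, near-identical copies of the stalk gene whose reads may be split, had values of -0.01 and 0.08. Whether head and stalk differ was not tested.

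Among the tektins, filament proteins inside the doublets, Tekt1 measured 10.7, 12.8 and 9.39 CPM in the RC mice against 6.42, 6.42 and 7.21 in the RN mice (-0.71 ± 0.17, adjusted p = 0.146). Tekt3, too low to be tested, had 12, 13 and 9 counts in RC and 1, 1 and 7 counts in RN. Tekt2 measured 1.29, 2.15 and 1.32 CPM in the RC mice against 1.78, 2.30 and 2.29 in the RN mice, with overlap (0.42 ± 0.33, adjusted p = 0.714). Tekt5, the most abundant tektin, overlapped at 14.3, 15.4 and 13.3 CPM in the RC mice against 13.9, 11.4 and 10.3 in the RN mice (-0.27 ± 0.16, adjusted p = 0.582). The Tekt1 and Tekt2 windows shown above, chosen after the values were seen, each hold a pair of half-sites, while a further window of each gene holds 0. Because Tekt2 overlapped between the groups, no contrast is drawn between Tekt1 and Tekt2.

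**Figure D2:**
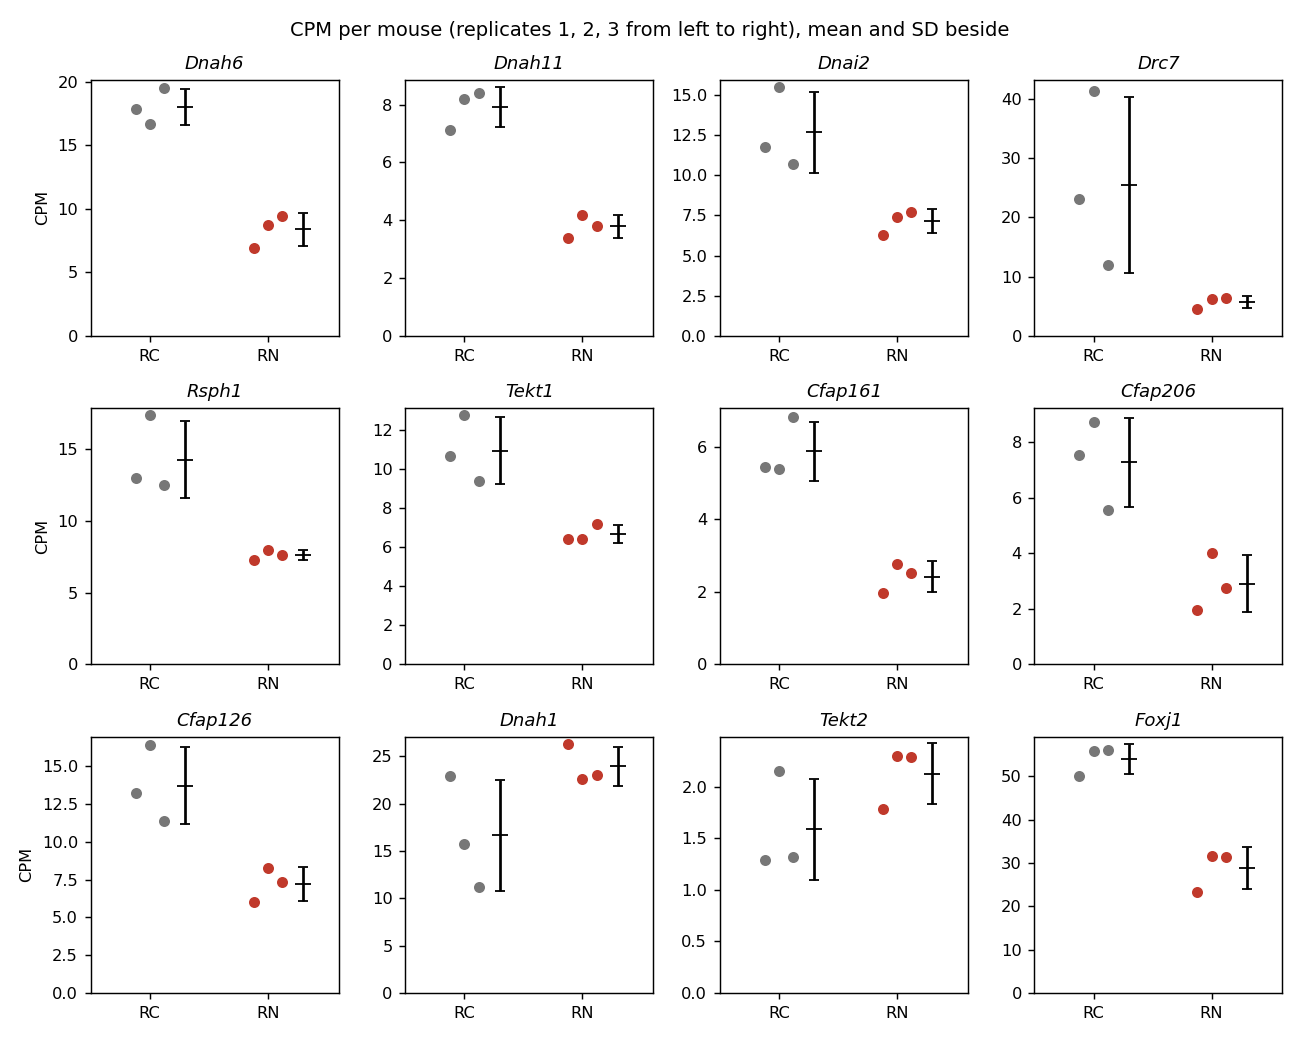
CPM (y axis, from 0) in each mouse for 11 axoneme genes and Foxj1, with RC in grey, RN in red, replicates 1 to 3 from left to right, and the mean with its SD (n = 3) beside the points. In 9 of the axoneme genes and in Foxj1 the RN points lie below all RC points, Dnah1 and Tekt2 overlap, and Drc7 ranges from 11.9 to 41.4 CPM within RC.

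The 41 CFAP genes were all tested and had a median of -0.67. Of the 41, 27 were lower without overlap (7.90% of all genes) and 0 were higher without overlap (7.91%). In edgeR 19 were lower at an unadjusted p under 0.05 (6.33%). Genes at the radial spoke base and the dynein tethers had a median of -0.76 over 9 genes (-0.58 with the choroid plexus score in the fit), of which 8 were lower without overlap. Cfap206, needed at the base of a radial spoke, measured 7.51, 8.72 and 5.56 CPM in the RC mice against 1.96, 4.01 and 2.74 in the RN mice (-1.32 ± 0.30, adjusted p = 0.137 in edgeR and 0.00632 in DESeq2). Cfap44, of the tether between a dynein head and the doublet, measured 7.68, 6.99 and 9.22 CPM in the RC mice against 5.12, 4.12 and 4.25 in the RN mice (-0.83 ± 0.19, adjusted p = 0.139). Cfap61, of the same spoke region, was lower without overlap too (-0.76 ± 0.20, adjusted p = 0.176). Cfap100 was the gene of this group that overlapped (-0.20 ± 0.37).

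Proteins that coat the inside of the doublet microtubules had a median of -0.72 over 11 CFAP genes, of which 6 were lower without overlap. Cfap161 measured 5.44, 5.38 and 6.82 CPM in the RC mice against 1.96, 2.78 and 2.52 in the RN mice, or 41.2% of the RC mean (-1.28 ± 0.23, adjusted p = 0.0967 in edgeR and 0.00202 in DESeq2). Cfap52 measured 7.01, 10.8 and 9.28 CPM in the RC mice against 2.68, 4.92 and 3.58 in the RN mice (-1.27 ± 0.27, adjusted p = 0.126). Cfap126 measured 13.2, 16.4 and 11.4 CPM in the RC mice against 6.01, 8.23 and 7.33 in the RN mice (-0.93 ± 0.19, adjusted p = 0.124). In each of them the groups were apart, whereas Cfap20 and Cfap90, the genes of this group above 0, overlapped at fitted values of 0.09 ± 0.13 and 0.33 ± 0.18.

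In the central apparatus, the core structure that directs the waveform, the median was -0.71 over 7 genes, of which 5 were lower without overlap. Cfap65 measured 9.09, 11.3 and 9.57 CPM in the RC mice against 3.63, 6.31 and 4.70 in the RN mice (-1.03 ± 0.23, adjusted p = 0.131). Cfap54 measured 17.7, 15.4 and 16.7 CPM in the RC mice against 7.85, 12.5 and 10.1 in the RN mice (-0.71 ± 0.18, adjusted p = 0.176). Cfap74, of the same apparatus, measured 13.9, 12.1 and 13.5 CPM in the RC mice against 10.9, 10.8 and 8.89 in the RN mice (-0.37 ± 0.15, adjusted p = 0.379). The remaining 14 CFAP genes, which were not assigned to a structure, had a median of -0.28, with 8 lower without overlap. Among them Cfap58 (-1.29 ± 0.46, adjusted p = 0.309) and Cfap157 (-0.95 ± 0.34, adjusted p = 0.320) were lower without overlap, Cfap58 at no more than 1.13 CPM in any mouse. Cfap36 lay between 49.7 and 67.0 CPM in RC and between 50.4 and 68.2 CPM in RN (-0.05 ± 0.15), and Cfap418 at 0.12 ± 0.10 overlapped as well.

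Per mouse, the mean of log2 CPM centred on each gene over the 81 tested genes was 0.24, 0.27 and 0.30 in RC replicates 1, 2 and 3 and -0.37, -0.18 and -0.26 in RN replicates 1, 2 and 3. The RC mice lay close together by this measure, and RN replicate 1 was the lowest mouse. An RC mouse had the highest level in 69 of the 81 genes, and an RN mouse had the lowest in 68. Among all 14956 tested genes an RC mouse was highest in 52.7% and an RN mouse was lowest in 43.8%. By part, the groups were apart in the dynein heavy chains, the intermediate chains, the assembly factors, the nexin-dynein regulatory complex, the radial spokes and the CFAP genes. In the tektins RN replicate 2, at 0.03, lay above RC replicate 1, at 0.02.

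**Figure D3:**
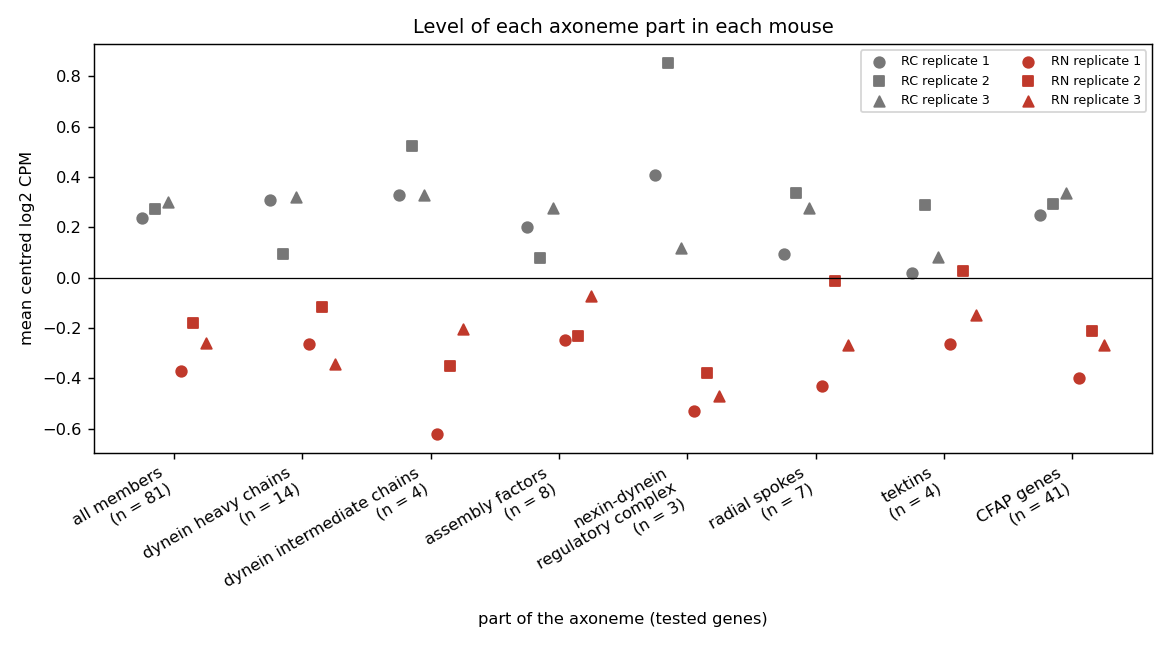
Mean centred log2 CPM (y axis) of the tested genes of each axoneme part (x axis, with the number of genes) in each mouse, RC in grey and RN in red, with a marker shape for each replicate. Over all 81 genes RC lies between 0.24 and 0.30 and RN between -0.37 and -0.18, and the tektins are the part in which the groups overlap.

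The size of the difference varied with how strongly a gene was expressed per length of transcript, which 80 of the 81 tested genes had. The 40 genes with a mean level of at least 1.17 CPM per kb had a median log2 fold change of -0.33, and the 40 below it had a median of -0.69. The numbers of lower genes were alike, with 19 and 17 at an unadjusted p under 0.05 in edgeR. Without overlap, 24 and 23 were lower. In the 15 genes at 5 CPM per kb or more the median was -0.23. At the top were Cfap36 at 21.7, Cfap418 at 19.5, Cfap298 at 16.1 and Dnaaf9 at 10.8 CPM per kb, with log2 fold changes of -0.05, 0.12, -0.28 and -0.18. Rsph1 at 7.97, Cfap126 at 5.88, Tekt1 at 5.44 and Drc7 at 5.20 CPM per kb were the genes of these 15 with a log2 fold change below -0.70. Cfap298 and Cfap68 share 53.6% and 30.1% of their exon length with other annotated genes. The split is a description of these 6 libraries, without a test.

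**Figure D4:**
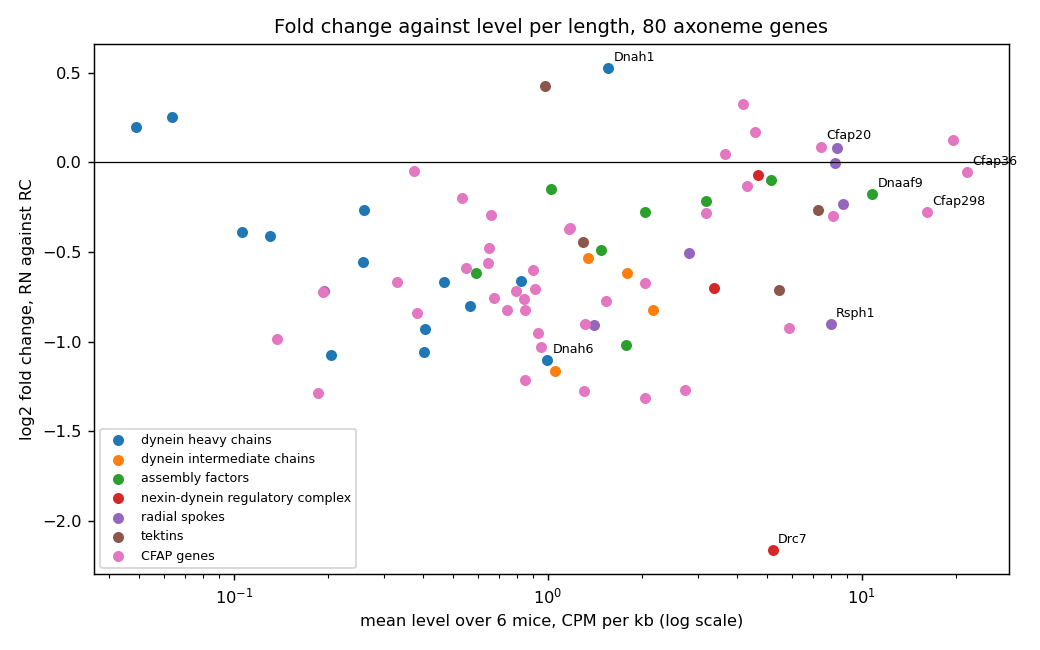
Log2 fold change of RN against RC (y axis) against the mean level over the 6 mice in CPM per kb of transcript (x axis, log scale) for the 80 tested axoneme genes with a length, coloured by part. The points near the right edge, such as Cfap36 at 21.7 CPM per kb, lie close to 0, and Drc7 lies lowest at -2.16.

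Regulators of the motile cilium programme were read from a list of 13 genes, of which 10 could be tested. Foxj1, the forkhead factor that switches on motile cilium genes, had 892, 935 and 979 counts in RC replicates 1, 2 and 3 and 390, 593 and 562 in RN replicates 1, 2 and 3, without overlap. Its log2 fold change was -0.91 ± 0.13 (adjusted p = 0.0630 in edgeR and 3.08e-06 in DESeq2), and with the replicate number as a block edgeR's adjusted p was 0.0473. Trp73, which controls multiciliated cell differentiation, measured 4.88, 10.7 and 5.84 CPM in the RC mice against 3.33, 2.46 and 4.58 in the RN mice (-1.04 ± 0.35, adjusted p = 0.285). Rfx4 and E2f5 were lower without overlap, at -0.39 ± 0.13 and -0.39 ± 0.16, while Rfx2, Rfx3 and E2f4 overlapped at -0.35 ± 0.23, -0.05 ± 0.18 and -0.03 ± 0.12. Myb, Ccno and Tfdp1 overlapped too, at -0.50, -0.66 and 0.00. Of the genes too low to test, Mcidas and Foxn4 overlapped and Gmnc had 9, 27 and 6 counts in RC and 4, 1 and 6 counts in RN. In all, 4 of 10 were lower and 0 higher at an unadjusted p under 0.05, and the 4 became 1 without RN replicate 2, 2 without RC replicate 3 and 2 with the choroid plexus score in the fit.

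Axoneme genes with other names were lower to a like extent, while genes of intraflagellar transport, which primary cilia also use, were near 0. Of 70 other axoneme genes listed, 67 were found and the other 3 were older names of genes already among the 85. Of the 67, 66 were tested, and their median was -0.68. At an unadjusted p under 0.05, 32 were lower and 1 (Tppp3) was higher. Examples are Hydin of the central apparatus (-0.72 ± 0.18, adjusted p = 0.161) and Ak7, an adenylate kinase of motile cilia (-1.01 ± 0.16, adjusted p = 0.0696). The 29 tested genes of intraflagellar transport had a median of -0.07, with 1 lower (Ift43) and 0 higher. The 14 tested genes of basal bodies and centriole amplification had a median of -0.09, with 3 lower (Spag5, Ccp110 and Ccdc78) and 0 higher. Whether these lists differ from the axoneme genes was not tested.

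Markers of cells that could carry the cilia, or that adjoin them, moved with the group. The 9 ependymal markers that are not cilium genes summed to between 136.9 and 157.8 CPM in RC and between 82.0 and 112.4 CPM in RN, and 5 of 9 were lower and 0 higher at an unadjusted p under 0.05. With the choroid plexus score in the fit 2 of 9 were lower, while the median log2 fold change of the 9 went from -0.52 to -0.62. Calml4, one of the 9, followed the choroid plexus order in RC, at 13.3, 25.2 and 5.90 CPM against at most 2.62 CPM in RN, and its fitted value moved from -2.59 to -0.92 with that score. The 15 choroid plexus markers summed to between 392.3 and 8736 CPM in RC and between 152.1 and 209.1 CPM in RN, with 13 lower and 0 higher. The 2 markers of the subcommissural organ, Sspo and Spdef, summed to between 3.17 and 23.2 CPM in RC and between 1.61 and 2.08 CPM in RN, and both were lower at that p. Spdef overlapped between the groups, and without RC replicate 1, RC replicate 3, RN replicate 1 or RN replicate 2 the number was 1. None of these lists' first markers (Tmem212, Ttr and Sspo) was at 0 in any mouse.

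The RC mice differed far more in choroid plexus than in axoneme transcripts. RC replicate 3 had the lowest choroid plexus sum of its group, 392.3 CPM, and axoneme transcripts of 932.4 CPM, beside 8736 and 976.2 CPM in RC replicate 2. The axoneme sum is weighted to abundant genes such as Dnaaf9, with a mean of 122 CPM in RC. Once the choroid plexus score entered the model, the median over the 81 axoneme genes was -0.60, 68 were below 0, and 22 were lower at an unadjusted p under 0.05 (4.35% of all genes) and 1 was higher (5.10%). Without RC replicate 2 the median was -0.57 and 32 genes were lower at that p, and without RC replicate 3 these were -0.54 and 30. Axoneme genes other than Drc7 also followed the choroid plexus order in RC. With the score in the fit, Dnai2 went from -0.83 to -0.45 and Rsph1 from -0.90 to -0.59. Cfap126 went from -0.93 to -0.54 and Cfap206 from -1.32 to -0.80. Dnah6 and Cfap161, which lacked that order, went from -1.10 to -1.23 and from -1.28 to -1.49. These examples were picked after their values were seen. Some genes had the order of the subcommissural organ markers instead, with RC replicate 3 highest and RC replicate 2 lowest. Unrelated genes often share an order of 3 mice, and whether these genes share a source was not tested. Dnah12, the example of the subcommissural organ order, was also picked after its values were seen. Dnah12 was at 3.42, 1.91 and 4.64 CPM in RC and between 1.39 and 1.73 CPM in RN, beside Sspo at 13.9, 2.75 and 21.6 CPM in RC and between 1.17 and 1.82 CPM in RN.

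Other tissue markers also differed between groups. The 7 astrocyte markers summed to between 3577 and 4290 CPM in RC and between 2615 and 3092 CPM in RN, with 5 lower and 0 higher at an unadjusted p under 0.05. Aqp4, the water channel of astrocyte endfeet, had a fitted value of -0.75 ± 0.16. Thalamic neuron markers overlapped, between 906.6 and 1918 CPM in RC and between 638.4 and 1264 CPM in RN. All 10 had fitted values below 0, with a median of -0.56, and 1 was lower at that p, beside 3 with DESeq2, 7 without RC replicate 2 and 9 with the choroid plexus score. Habenular markers lay between 73.9 and 133.9 CPM in RC and between 120.1 and 175.5 CPM in RN (2 of 6 higher, 4 with the replicate block, 0 with the choroid plexus score, Gpr151 at 0.56 ± 0.30), and hypothalamic markers between 33.8 and 215.2 CPM in RC and between 284.4 and 449.8 CPM in RN (5 of 8 tested higher, Sim1 at 0.71 ± 0.65). Tanycyte markers overlapped, between 51.8 and 105.8 CPM in RC and between 54.0 and 98.4 CPM in RN, with 1 of 7 lower (Adm) and 1 higher (Gpr50). Gpr50, an orphan receptor, measured 1.35, 1.55 and 0.974 CPM in the RC mice against 6.96, 14.1 and 7.77 in the RN mice, and edgeR called it higher (2.89 ± 0.34, adjusted p = 0.0419), but not with the choroid plexus score (adjusted p = 0.126) nor without single mice other than RN replicate 1. Rax was under 10 counts in 5 of the 6 mice. How much of the axoneme difference came from the ventricle wall and other tissue removed with the thalamus was not tested.

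**Figure D5:**
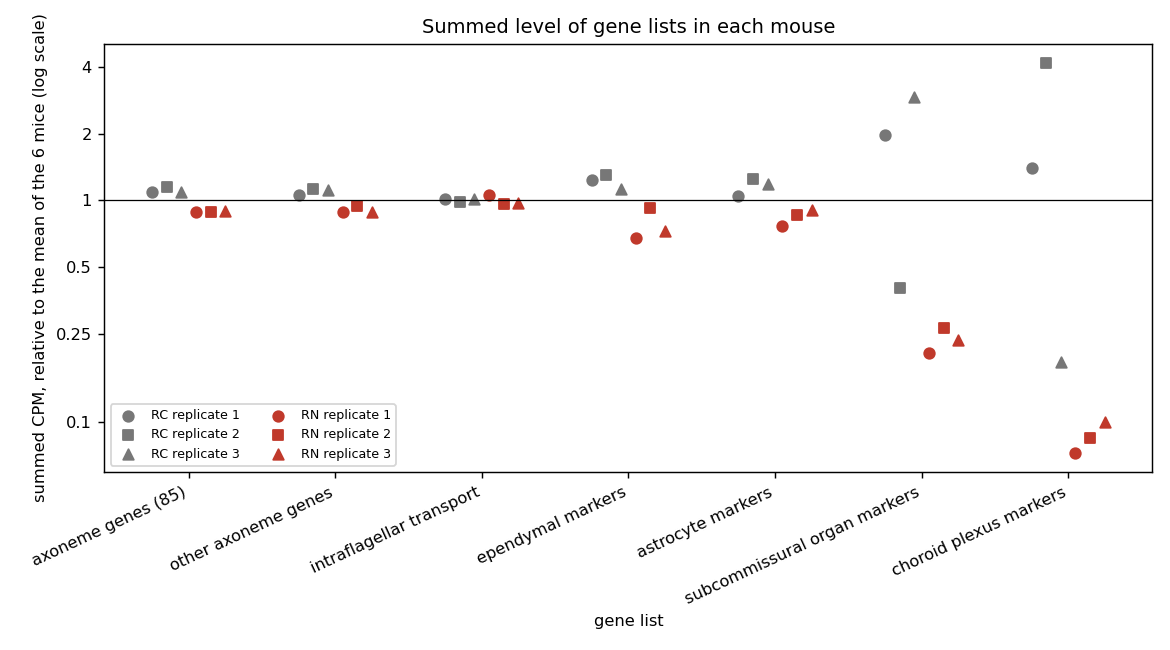
Summed CPM of each gene list relative to its mean over the 6 mice (y axis, log scale) in each mouse, RC in grey and RN in red, for the 85 axoneme genes and 6 other lists (x axis). The RC points of the axoneme genes lie close together, from 930.0 to 976.2 CPM, while those of the choroid plexus markers range from 392.3 to 8736 CPM.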

How the data were processed

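Thalamus RNA of 3 RC and 3 RN mice was compared. The values deposited by the authors are raw read counts, whole numbers for each gene and mouse that were not normalized. The submitters' processing notes name fastp 0.18.0, FastQC, HISAT2 2.2.4, RSEM 1.2.19 and the build GRCm39. The kit (NEBNext Ultra RNA) did not mark strand, so overlapping and antisense genes cannot be told apart. Library totals lay between 16561663 and 18657015.

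With edgeR 4.0.16 in R 4.3.3, filterByExpr (minimum count 10) kept 14956 genes, TMM set library sizes and a quasi-likelihood model of group alone was fitted. P-values were adjusted by the Benjamini-Hochberg method over all tested genes. Values after ± beside a log2 fold change are standard errors. On simulated counts with 200 genes changed 2-fold among 14851, edgeR recovered 81%, with 3.57% false calls. The simulation gave every gene the same biological coefficient of variation (17.4%) and changed no gene of low level. Its shares therefore do not carry over to the real counts, where genes differ in spread. Alternatives were the Wald test of DESeq2 1.42.0, its size factors, other filters, no fold threshold, the replicate block, a choroid plexus score (mean centred log2 CPM of 15 markers, prior count 2) and leaving out each mouse.

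The axoneme genes and the other lists were chosen with earlier results of these data known. Parts of the axoneme were assigned from general knowledge. Named genes were, per part, the 3 with the smallest p, the most abundant, the smallest p against the part's median, those called by either tool, the cilium transcription factors and each marker list's first gene. Other genes named here were chosen after their values were seen. Deviations across genes correlated at 0.173, 0.120 and 0.209 between mice of the same replicate number. Between mice of different numbers the values ranged from -0.285 to 0.156 (RC replicate 1 with RN replicate 2), so the ranges overlap. The labels give no shared litter or day.

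Exon overlap and transcript length came from GENCODE M21 (GRCm38), which is not the authors' build, so no gene coordinates were taken from it. The RefSeq promoter windows carry GRCm38.p6 coordinates.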

Additional observations from a re-analysis of the deposited data

How the results depend on the processing

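Over the axoneme genes, the number lower at an unadjusted p under 0.05 (37) lay between 30 and 36 with each mouse left out. The median log2 fold change (-0.60) lay between -0.62 and -0.54 when a mouse was left out. Genes called by edgeR ranged from 0 to 1 (Drc7, without RC replicate 3), and DESeq2 called 10. Genes higher at an unadjusted p under 0.05 numbered 1 (Dnah1) with DESeq2, with the replicate block and with the choroid plexus score, and ranged from 0 to 2 without single mice (2 without RC replicate 1). Genes higher without overlap ranged from 0 to 3 without single mice (3 without RC replicate 1 and without RC replicate 2, 2 without RN replicate 1 and without RN replicate 2), a count that leaving out a mouse can only keep or raise. Shares over all genes were not worked out without single mice, so these counts have no background beside them. With the choroid plexus score 22 axoneme genes and 22 of the other motile cilium genes (40 in the main fit) were lower at an unadjusted p under 0.05, the median was -0.82 for dynein heavy chains and -0.54 for assembly factors, and the adjusted p of Neurod1 was 0.0739 at a log2 fold change of 3.82. The CFAP median was -0.59 with at least 10 counts required in every mouse. Without single mice the medians ranged from -0.67 to -0.58 for CFAP genes, from -0.41 to -0.24 for assembly factors and from -0.55 to -0.33 for radial spokes. The replicate block left the median at -0.62 and 35 genes lower, and among the genes named here it changed no call, although the adjusted p of Foxj1 came to 0.0473 at a log2 fold change of -0.92, less than 2-fold. The cause of these shifts was not tested.

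Of the 81 axoneme genes, 14 turned in direction under at least 1 alternative. Directions turned, for genes with an adjusted p above 0.05 in either fit, as follows. With the choroid plexus score these were Rsph9 (0.29), Cfap99 (0.18), Dnaaf5 (0.044), Drc1 (0.0080), Cfap418 (-0.024), Rfx2 (0.037), Rfx3 (0.38), E2f4 (0.053) and Gpr151 (-0.19). Without single mice they were Rsph3a (-0.091 to 0.13, and 0.0028 with the replicate block), Dnah17 (-0.082 to 0.38), Dnah7b (-0.50 to 0.00050), Cfap100 (-0.51 to 0.10), Cfap99 (-0.27 to 0.20), Cfap410 (-0.015 to 0.15), Dnaaf10 (-0.19 to 0.043), Dnaaf11 (-0.35 to 0.16), Cfap20 (-0.048 to 0.15), Cfap36 (-0.18 to 0.034), Rfx3 (-0.19 to 0.098), E2f4 (-0.093 to 0.021) and Tfdp1 (-0.055 to 0.045), and with no filter or with 10 counts in every mouse Tfdp1 (-0.00071 and -0.00028). Depth limits the 4 untested genes, which had at most 13 counts in a mouse.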
